A study of Danio rerio with 27 samples.

Results

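The genes described here build autophagosomes and lysosomes. They were picked by symbol, under a rule set with earlier results of these data known. A gene was taken when its symbol began with that of an autophagy-related (atg), ulk, wipi, gabarap, map1lc3, lamp, cathepsin (cts), proton pump (atp6v0, atp6v1 or atp6ap), hex, gaa, gba or mcoln gene, or of becn1, sqstm1, tfeb or lipa. Among the 39988 entries of the counts, 91 met the rule, and none of them was lipa. The match also drew in a few genes whose mammalian counterparts are not lysosomal, among them gba2 and gba3, glucosidases found outside the lysosome, and they were kept.

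Autophagy encloses cytoplasm in a double membrane and delivers it to the lysosome, where acid hydrolases break it down. Kinases that sense nutrients start the process, lipid kinases and Atg9 vesicles supply the membrane, and conjugating enzymes attach the ubiquitin-like proteins LC3 and GABARAP to it. A proton pump of many subunits acidifies the lysosome, and the transcription factor TFEB raises the expression of many genes of both organelles. In fasting and in wasting disease autophagy is known to mobilise reserves of liver and muscle. Roles are given below as known from the mammalian and yeast proteins.

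Each library was made from pooled whole zebrafish larvae, 21 days post fertilisation, with a 3′ mRNA kit (QuantSeq), so reads come from the ends of transcripts. Larvae were wild type (WT) or PY, a background with more than 1 engineered change that includes constitutive overexpression of the growth regulator YAP in the liver and that the series describes as carrying tumours and cachectic. All larvae, controls included, had been injected as embryos with CRISPR/Cas9 against the transporter SLC45a2, a pigmentation marker of editing. In TGR5-KO larvae the bile acid receptor TGR5 was targeted as well, and in CYP7a1-KO larvae the bile acid synthesis enzyme CYP7a1. The 6 groups were SLC45a2-KO, TGR5-KO and CYP7a1-KO in WT, with 4 libraries each, and the same 3 in PY, with 5 libraries each. Larvae injected in this way are usually mosaics of edited and unedited cells, and a whole larva mixes all tissues, so fewer cells of a type and less RNA per cell cannot be told apart. The labels do not say that pools came from separate clutches, so p-values measure the spread between these pools.

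The libraries held 3377345 to 6238251 counts each (median 4533099), and 15521 genes passed the expression filter. Values are CPM, the counts relative to a fixed library size, scaled by TMM factors. For a gene with no count the limit was 3 counts, which is 0.481 to 0.888 CPM before scaling, and this floor covers counting error only. Changes are log2 changes ± SE from edgeR's quasi-likelihood test, called at a Benjamini-Hochberg adjusted p under 0.05 over all tested genes. Many genes given by library were named for their calls, so lack of overlap between groups adds no separate support. The share of all tested genes without overlap was not counted. Over all 27 libraries slc45a2 had 20 counts and gpbar1, which encodes TGR5, had 45, too few to check these edits. Before scaling, the cyp7a1 transcript was at 34.5 to 56.0 CPM in WT CYP7a1-KO and at 0.588 to 3.82 CPM in WT SLC45a2-KO. It was thus not lower in the WT group labelled as its knockout. In WT TGR5-KO, where it was not targeted, it also lay above the controls, at 20.5 to 39.2 CPM. The PY ranges overlapped, at 7.45 to 17.2 CPM in CYP7a1-KO, 8.16 to 18.1 CPM in TGR5-KO and 4.98 to 13.1 CPM in SLC45a2-KO. Where the guides cut is not stated in the labels, so 3′ tags may lie outside the edited stretch and then check nothing. In PY CYP7a1-KO, libraries 1 and 2 differed from libraries 3 to 5 by a chi-square per degree of freedom of 13.7 to 21.8, against 8.08 to 13.0 among the latter, so calls of that group were also made without both.

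Together the 91 genes took 0.223 to 0.341% of the counts of a library, and the cathepsin L gene ctsl.1 alone made up 12.1 to 26.0% of that share. Of the 91 genes 70 passed the filter and were tested. Another 7 had no count in any library, namely atg12, atp6v0d1, atp6v0e1, atp6v1aa, atp6v1c1b, ctsll and hexa. As reads come from transcript ends only, having no count does not show that a gene, here or below, was not expressed. The other 14 were too low to test, from 1 count each over all libraries for atp6v0a2a and atp6ap1lb to 122 for atg2b. The table holds pairs of near copies (atp6v0ca and atp6v0cb, the cathepsin L genes, ctss2.1 and ctss2.2, ulk1a and ulk1b), and how reads that match both were counted is not stated, so single members of such pairs are uncertain. Reads come from transcript ends, and counts were not scaled to length. Changes are compared between groups, and statements on the most abundant gene or on a gene's share of a sum refer to counts only.

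**Figure D1:**
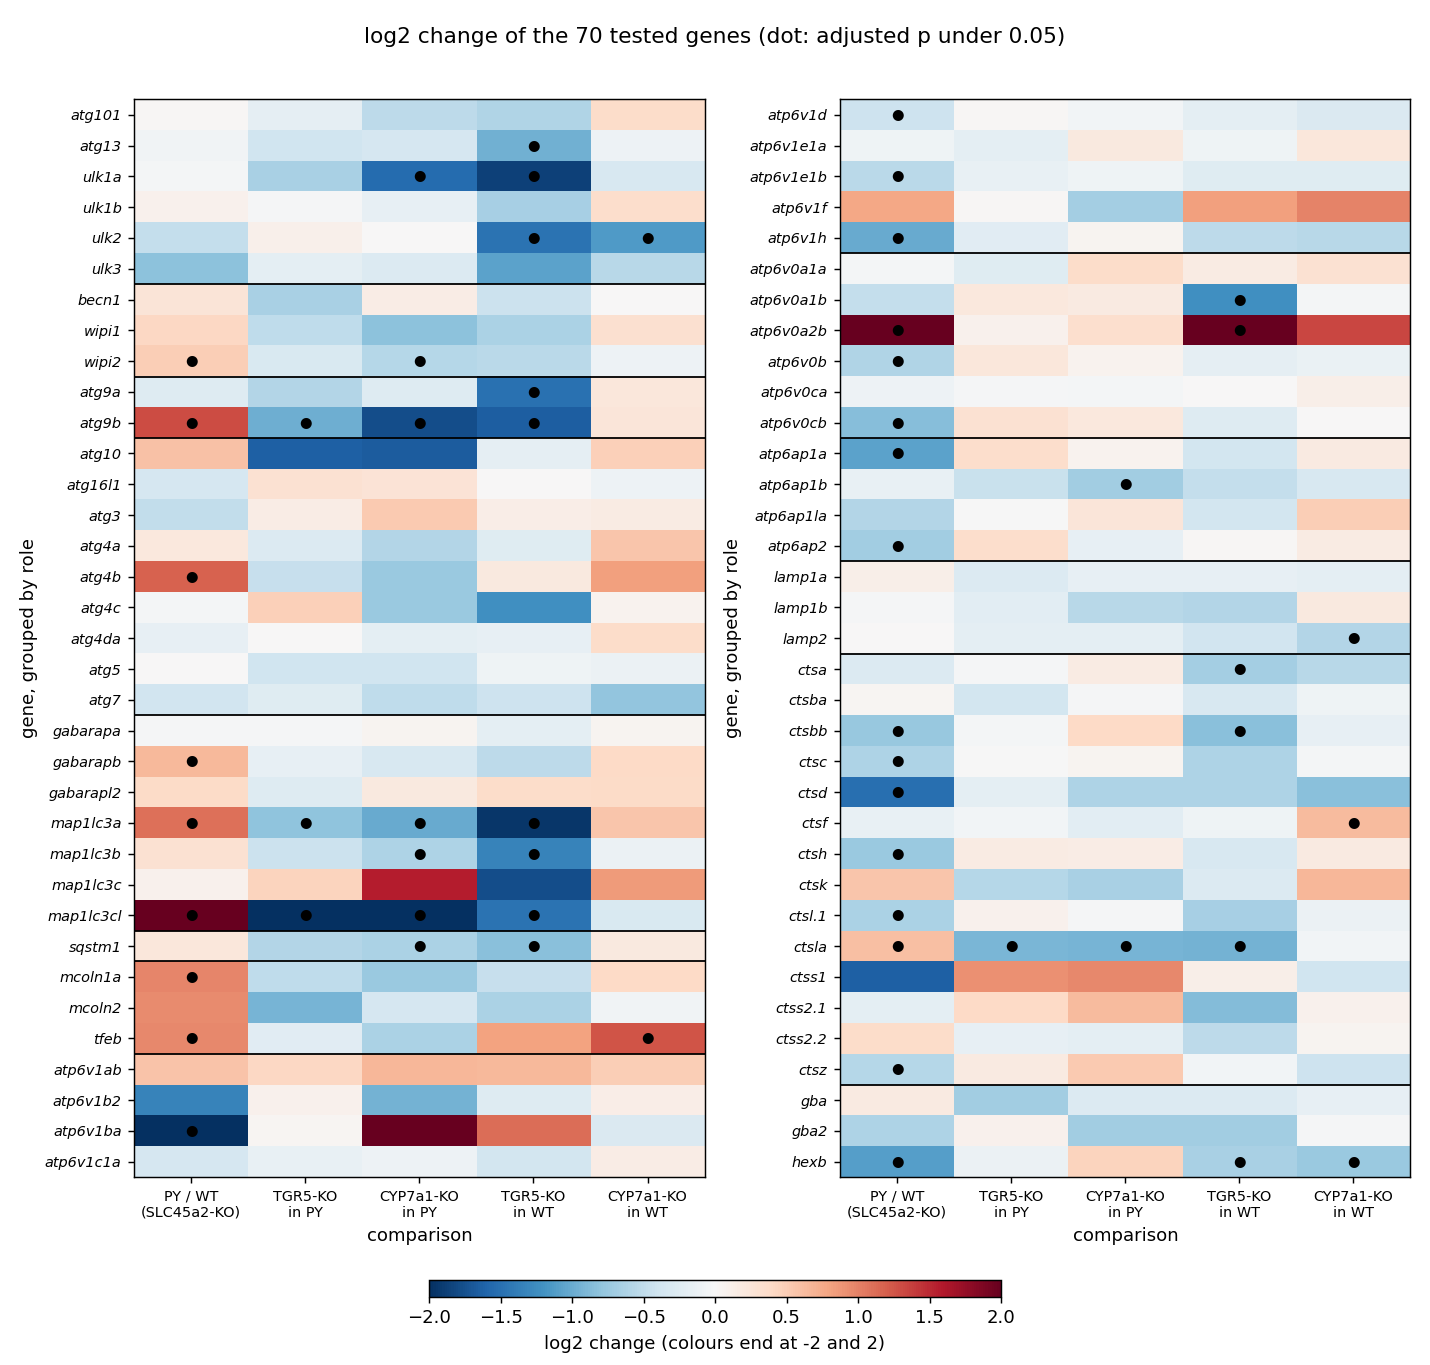
The log2 change of each of the 70 tested genes in 5 comparisons, with genes grouped by role. Red is higher and blue lower in the first-named group, colours end at -2 and 2, and a dot marks an adjusted p under 0.05. In the first comparison dots are red among the autophagosome genes and mostly blue among the pump and cathepsin genes.

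PY and WT larvae with the SLC45a2-KO control edit were compared to see the tumour background itself. Autophagosome genes with a call were higher in PY, and most pump and hydrolase genes with a call were lower. Of the 70 tested genes 25 passed, 10 higher and 15 lower, where 35.6% of all tested genes passed (17.9% higher and 17.7% lower). The members' share of 35.7% was thus that of all genes, and their median log2 change of -0.06 lay near the -0.02 of all genes. Split by role, a split made after values were seen, 6 of 28 tested autophagosome genes were higher and 0 lower (median 0.08). Their share called higher was near the 17.9% of all genes, and 17 of their changes were positive and 11 negative. For the proton pump 1 of 19 was higher and 8 lower (median -0.48), and for lysosomal enzymes and membrane proteins 1 of 20 was higher and 7 lower (median -0.24). Of 3 tested regulators 2 were higher.

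Among the ubiquitin-like proteins, which coat the autophagosome and hold its cargo, 3 of 7 were higher in PY. The LC3 gamma-like gene map1lc3cl was at 6.96, 7.30, 3.35 and 4.36 CPM in WT and at 50.3, 33.6, 40.2, 22.2 and 13.6 CPM in PY. Even the lowest PY library lay above the highest WT library (2.54 ± 0.35, adjusted p = 1.05e-07). For map1lc3a, the LC3 alpha gene, the WT libraries held 19.1, 14.8, 17.8 and 19.5 CPM and the PY libraries 42.9, 34.0, 39.95, 47.4 and 27.7 CPM. These groups did not overlap either (1.104 ± 0.29, adjusted p = 0.00243). The GABARAP gene gabarapb stood at 53.0, 50.2, 54.8 and 48.4 CPM in WT and at 83.9, 94.3, 81.2, 63.2 and 83.2 CPM in PY, again without overlap (0.66 ± 0.16, adjusted p = 0.00102). The LC3 beta gene map1lc3b did not pass, with 50.7, 41.9, 51.0 and 47.8 CPM in WT and 54.0, 60.7, 70.7, 55.2 and 55.7 CPM in PY (0.31 ± 0.21, adjusted p = 0.264). Its PY libraries nevertheless all lay above the WT libraries. The last 3 genes of the class did not pass. Of these gabarapa was at 18.9, 30.5, 30.9 and 33.8 CPM in WT and 25.3, 29.0, 23.2, 25.5 and 37.7 CPM in PY (-0.02 ± 0.19, adjusted p = 0.954). The gabarapl2 libraries were at 16.8, 11.6, 15.3 and 12.7 CPM and 16.7, 22.2, 25.2, 13.6 and 14.3 CPM (0.39 ± 0.23, adjusted p = 0.189). Low counts made map1lc3c the least certain, at 2.92, 4.08, 0.209 and 1.33 CPM and 3.71, 1.44, 0, 4.71 and 1.49 CPM (0.08 ± 0.85, adjusted p = 0.956). Summed over the 7 genes the level was 167.5 ± 5.33 CPM in WT (SD, n = 4) and 260 ± 24.6 CPM in PY (n = 5).

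Upstream of them, the scramblase gene atg9b, whose protein sits in the vesicles that seed the membrane, was at 16.4, 12.02, 10.9 and 20.3 CPM in WT and at 57.5, 26.3, 29.96, 48.0 and 23.0 CPM in PY. The groups did not overlap, although the PY libraries spread widely (1.30 ± 0.31, adjusted p = 0.00114). Its paralog atg9a was at 9.997 ± 3.48 CPM in WT and 8.40 ± 2.096 CPM in PY (-0.26 ± 0.40, adjusted p = 0.657). The protease gene atg4b, which trims LC3, was at 2.02, 3.44, 2.51 and 2.09 CPM in WT and 7.19, 6.59, 4.74, 7.76 and 2.55 CPM in PY, with 1 PY library inside the WT range (1.19 ± 0.41, adjusted p = 0.0188). Of the phosphoinositide binders, wipi2 was at 31.4, 33.9, 26.97 and 37.0 CPM in WT and 43.6, 52.1, 45.4, 54.3 and 31.9 CPM in PY. Again the lowest PY library lay inside the WT range (0.49 ± 0.19, adjusted p = 0.0427). None of the 6 genes of the initiation kinase complex passed, and neither did the other 8 conjugation genes, becn1, wipi1 or the cargo receptor sqstm1. The most abundant conjugation gene by count, atg16l1, was at 31.0, 33.7, 44.5 and 48.0 CPM in WT and 36.6, 32.1, 28.5, 28.8 and 29.1 CPM in PY (-0.34 ± 0.16, adjusted p = 0.0859).

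Both regulators with a call were higher in PY. The transcription factor gene tfeb was at 2.69, 6.87, 7.11 and 3.22 CPM in WT and at 10.203, 10.7, 10.49, 9.98 and 7.02 CPM in PY. One PY library lay within the WT range and the other 4 above it (0.96 ± 0.30, adjusted p = 0.0104). For mcoln1a, the lysosomal calcium channel, the WT libraries held 5.39, 3.65, 3.14 and 6.26 CPM and the PY libraries 8.35, 11.7, 10.49, 6.93 and 8.08 CPM, with no overlap (0.98 ± 0.37, adjusted p = 0.0312). The related channel gene mcoln2 was at 1.38 ± 0.683 and 2.67 ± 1.55 CPM (0.95 ± 0.67, adjusted p = 0.282).

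**Figure D2:**
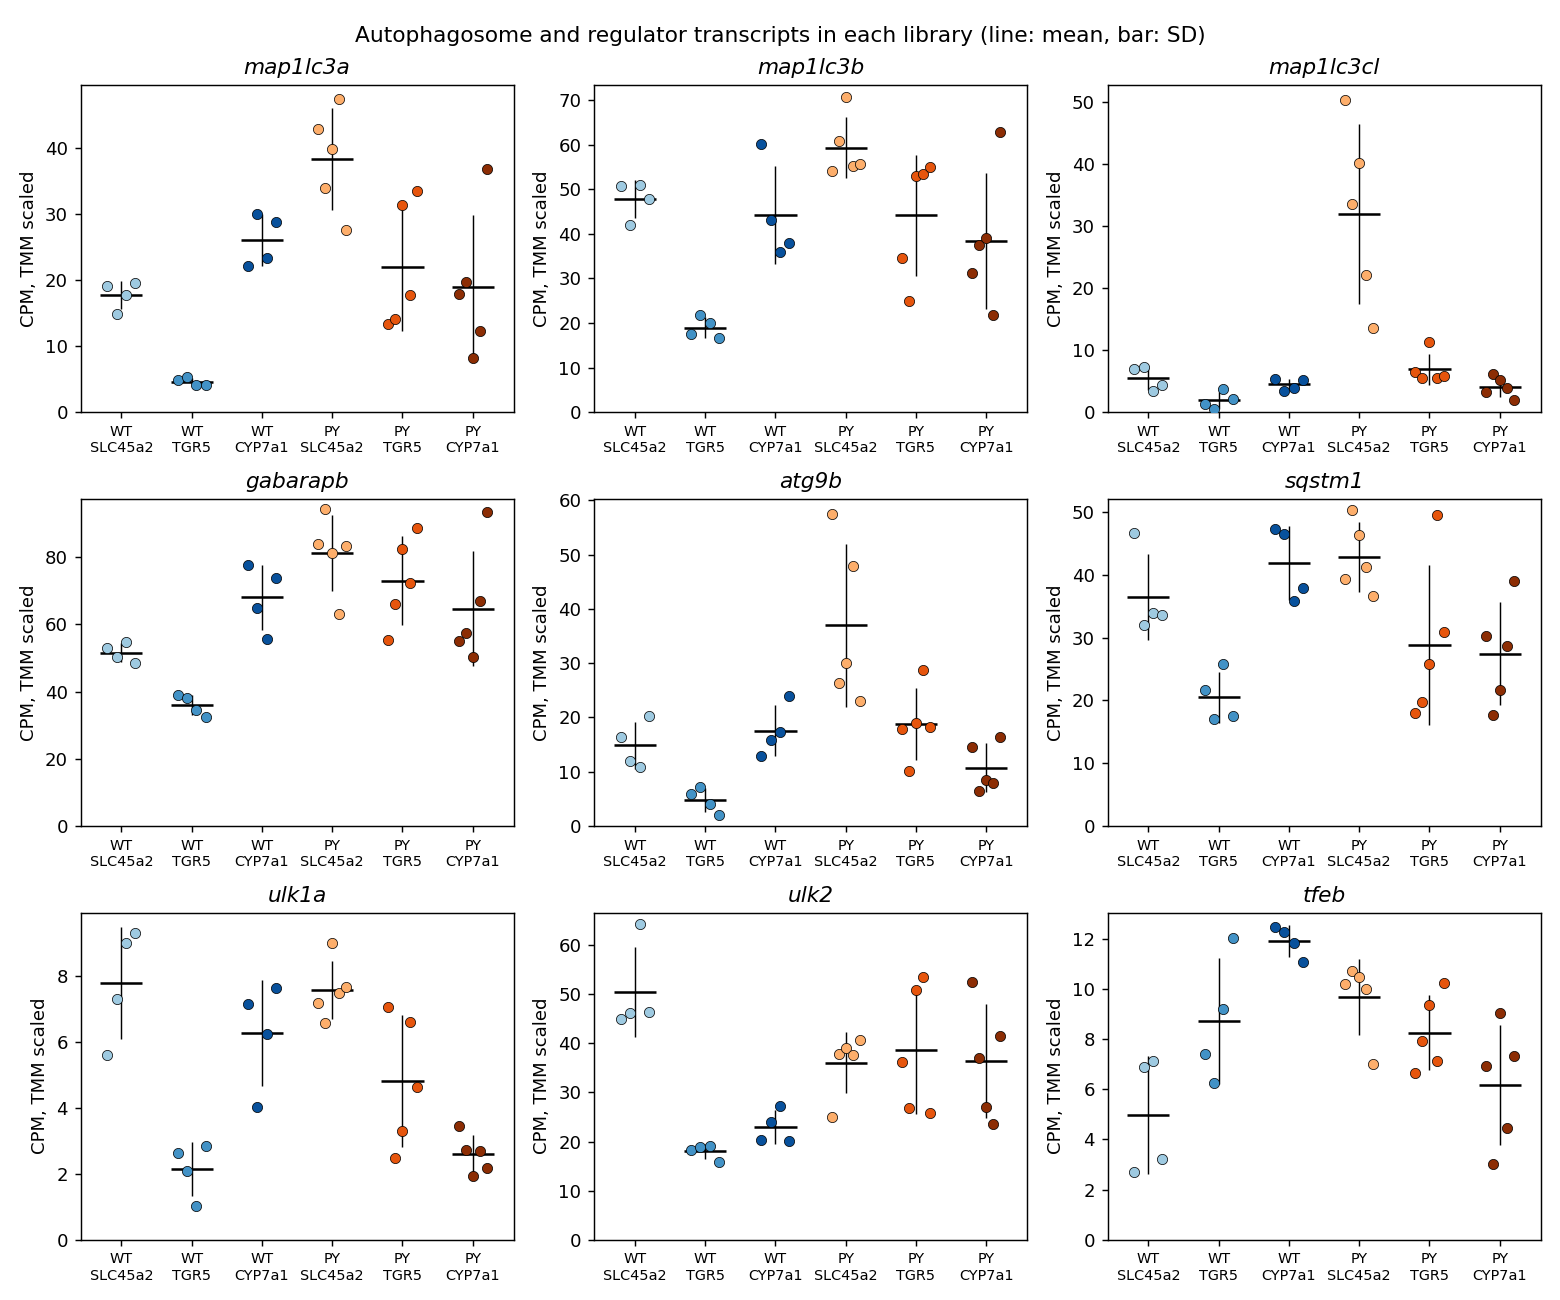
Levels (CPM, TMM scaled) of 9 autophagosome and regulator genes in each of the 27 libraries, by group, with the mean as a horizontal line and the SD as a vertical bar. PY SLC45a2-KO has the highest mean for map1lc3cl, map1lc3a and atg9b, WT TGR5-KO has the lowest for map1lc3a, map1lc3b and gabarapb, and tfeb has its highest mean in WT CYP7a1-KO (11.1 to 12.48 CPM).

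Subunits of the proton pump that passed were lower in PY, with 1 exception. The membrane ring subunit gene atp6v0cb was at 249.6, 262, 275 and 287 CPM in WT and at 176, 123.3, 157.8, 122.6 and 160.6 CPM in PY. All PY libraries lay below all WT libraries (-0.86 ± 0.12, adjusted p = 2.07e-07). The near copy atp6v0ca was at 382, 391, 397 and 484 CPM in WT and 374, 449, 361, 344 and 392 CPM in PY, with much overlap (-0.11 ± 0.12, adjusted p = 0.52). For atp6v1h, which links the pump's ATPase head to its membrane part, the WT libraries held 26.3, 24.7, 18.6 and 23.9 CPM and the PY libraries 10.9, 11.5, 14.0, 9.15 and 12.6 CPM, without overlap (-1.003 ± 0.21, adjusted p = 0.000162). The accessory subunit gene atp6ap1a was at 21.8, 25.3, 24.0 and 24.1 CPM in WT and 10.9, 10.9, 18.2, 8.60 and 8.08 CPM in PY. There was no overlap here either (-1.07 ± 0.23, adjusted p = 0.000179). The renin receptor gene atp6ap2, another accessory subunit, was at 16.4, 16.3, 22.8 and 25.03 CPM in WT and 16.9, 14.8, 12.7, 4.99 and 12.1 CPM in PY. One PY library fell among the WT libraries (-0.70 ± 0.26, adjusted p = 0.0283).

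Smaller falls passed for the membrane subunit gene atp6v0b (-0.60 ± 0.16) and for atp6v1e1b and atp6v1d, which encode stalk subunits of the head (-0.53 ± 0.17 and -0.42 ± 0.15). Of these atp6v1d, the most abundant of the head subunits by count, was at 53.6, 50.7, 69.4 and 57.6 CPM in WT and 40.6, 41.4, 52.2, 40.2 and 42.3 CPM in PY, where 1 PY library reached the WT range. The head subunit gene atp6v1ba was at 0.898, 5.80, 1.88 and 3.60 CPM in WT and had counts in only 1 PY library. In all it had 59 counts in the 4 WT libraries and 2 in the 5 PY libraries. Its share of counts was 31.8-fold higher in WT (95% interval from counting error 8.42 to 269, edgeR adjusted p = 7.06e-05). The exception was atp6v0a2b, an isoform of the proton path subunit, at 0.215 to 0.758 CPM in WT, around the floor, and 1.11 to 3.50 CPM in PY (2.09 ± 0.69, adjusted p = 0.0146).

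Lysosomal hydrolases among the members that passed were lower in PY apart from 1 cathepsin L gene. This did not extend to a wider list of lysosome genes, given below. Of its 50 tested genes 10 were higher and 4 lower in PY (median 0.29). The beta-hexosaminidase gene hexb, whose enzyme breaks down gangliosides, was at 29.2, 28.8, 26.97 and 24.1 CPM in WT and at 11.8, 13.0, 11.7, 11.1 and 15.5 CPM in PY. No PY library reached the WT range (-1.103 ± 0.19, adjusted p = 8.85e-06). For ctsd, the aspartic protease cathepsin D, the WT libraries held 26.3, 27.7, 16.7 and 19.3 CPM and the PY libraries 7.19, 8.44, 5.99, 6.93 and 10.6 CPM, without overlap (-1.51 ± 0.42, adjusted p = 0.00631). The cathepsin B gene ctsbb was at 81.0, 93.0, 92.6 and 75.1 CPM in WT and 40.1, 83.6, 35.5, 39.4 and 53.2 CPM in PY, where 1 library fell within the WT range (-0.76 ± 0.22, adjusted p = 0.0067). Its paralog ctsba did not pass, at 157.3 ± 7.02 CPM in WT and 162.5 ± 54.2 CPM in PY (0.05 ± 0.16, adjusted p = 0.855). The cysteine protease gene ctsh was at 39.3, 39.3, 40.4 and 32.2 CPM in WT and 27.6, 24.7, 21.2, 18.6 and 19.998 CPM in PY, lower in every library (-0.75 ± 0.19, adjusted p = 0.00113). The cathepsin L gene ctsl.1 was at 726, 808, 732 and 808 CPM in WT and 552, 710.1, 316, 370.2 and 534 CPM in PY, again without overlap (-0.63 ± 0.19, adjusted p = 0.0113).

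The other way went ctsla, a second cathepsin L gene, with 128, 141.7, 139 and 149.2 CPM in WT and 249, 221, 217, 172 and 194 CPM in PY. Every PY library lay above every WT library (0.60 ± 0.15, adjusted p = 0.00118). Further falls passed for the cysteine protease genes ctsc (-0.61 ± 0.22) and ctsz (-0.57 ± 0.20). The 3 lamp genes, which encode the main glycoproteins of the lysosomal membrane, did not pass. The most abundant of them by count, lamp1a, was at 123.2, 113, 121 and 146.2 CPM in WT and 158.8, 160.3, 133, 90.4 and 141.3 CPM in PY (0.12 ± 0.14, adjusted p = 0.551).

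Of these 25 calls 15 held in every alternative that could be fitted, each fit without 1 library and DESeq2 included. The other 10 were each lost in some fits without 1 library. The call of wipi2 was lost in 6 of 9 such fits (WT SLC45a2-KO 1, 2 or 3 or PY SLC45a2-KO 2, 3 or 4 left out, adjusted p = 0.0603 to 0.142). Those of mcoln1a (WT 2 or 3, PY 2 or 3; 0.0592 to 0.109) and ctsc (WT 3 or 4, PY 1 or 4; 0.0502 to 0.0877) were lost in 4 each. Those of atg4b (WT 1 or 4, PY 4; 0.0537 to 0.0582) and atp6ap2 (WT 3 or 4, PY 4; 0.081 to 0.113) were lost in 3 each, and those of tfeb (WT 1 or 4, 0.0611 to 0.066) and ctsz (WT 2, PY 4; 0.0596 to 0.123) in 2 each. In 1 fit each atp6v0a2b (WT 2, 0.052), atp6v1d (WT 3, 0.127) and atp6v1e1b (PY 3, 0.0533) were lost. Of the same 10, wipi2 and mcoln1a were also lost with the library number as a replicate block (0.0558 and 0.0516), mcoln1a, tfeb and atg4b with counts thinned to the smallest library (0.0525, 0.0898 and 0.0569), and atp6v1d without the filter on low counts (0.0692).

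Markers of several cell types moved with these groups, and their part in the results was not tested. Lysosome-rich enterocytes, gut cells that take up and digest protein, had 5 of 7 markers lower in PY, and the markers summed to 897 to 1196 CPM in WT and 382 to 688 CPM in PY. Of that sum fabp6 alone made up 852 ± 115 CPM in WT (SD, n = 4) and 402 ± 127 CPM in PY (n = 5). The sum thus mostly follows that 1 gene. How specific the listed genes are to their cell types was not tested, here or below. Exocrine pancreas markers were lower in all 8 tested cases (13070 to 15401 CPM in WT and 3542 to 6641 CPM in PY). Hepatocyte markers were higher in 6 and lower in 1 of 10 cases (11907 to 15505 CPM in WT and 20494 to 27762 CPM in PY). Macrophage markers were higher in 3 of 8 tested cases (110 to 136 CPM in WT and 145.3 to 218 CPM in PY), while the defining markers c1qa, c1qb and c1qc had no count in either group and mpeg1.1 had none in PY. Kidney tubule markers were lower in 1 of 5 tested cases (270 to 297 CPM in WT and 161.3 to 172 CPM in PY). Markers of ionocytes, skin cells of which some are rich in the same pump, were higher in 2 and lower in 2 of 9 cases (677 to 862 CPM in WT and 620 to 736 CPM in PY). Most of that sum was atp1a1a.1, atp1a1a.4 and atp1b1b. The low marker ca15a was at 6.29 ± 1.26 CPM in WT (SD, n = 4) and 1.92 ± 1.22 CPM in PY (n = 5). The other way went gcm2, at 2.98 ± 2.41 and 6.32 ± 1.77 CPM.

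**Figure D3:**
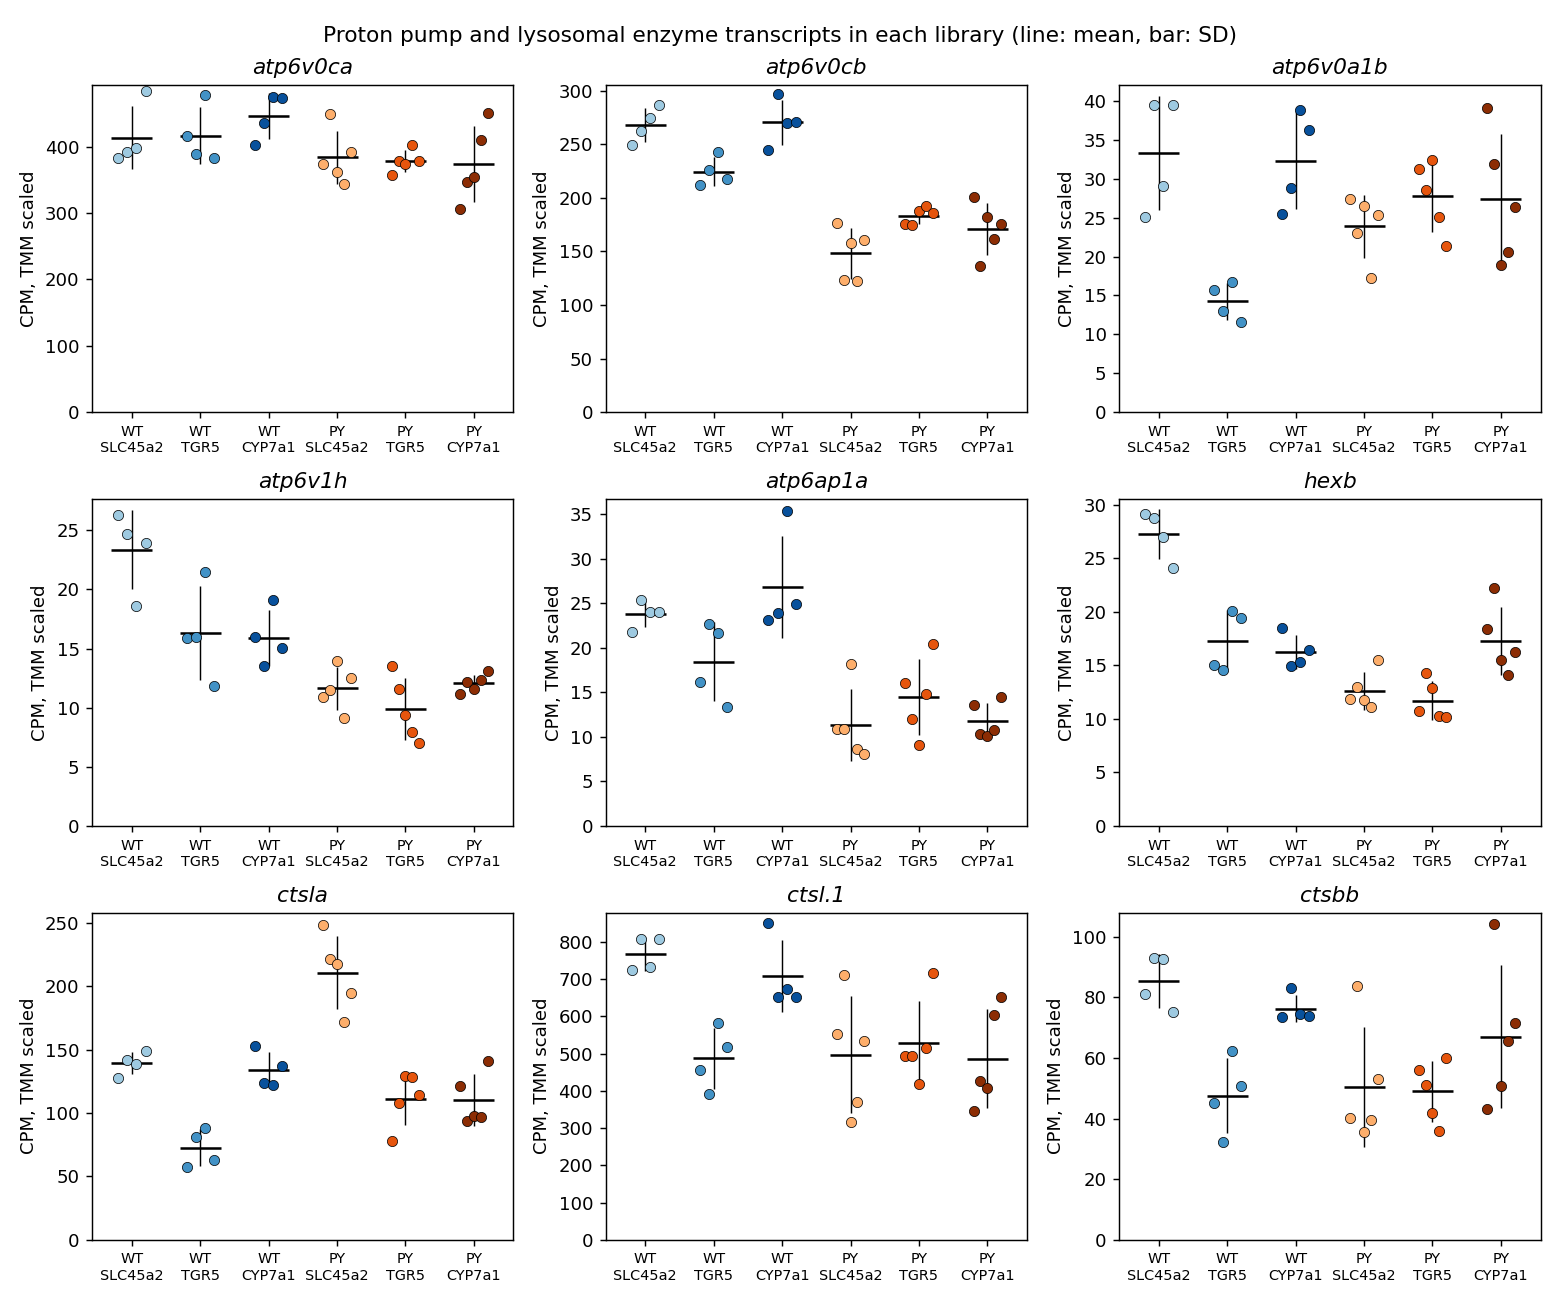
Levels (CPM, TMM scaled) of 9 proton pump and lysosomal enzyme genes in each of the 27 libraries, by group, with the mean as a horizontal line and the SD as a vertical bar. In atp6v0cb the PY SLC45a2-KO libraries (122.6 to 176 CPM) lie below the WT SLC45a2-KO libraries (249.6 to 287 CPM), and ctsla has its highest mean in PY SLC45a2-KO.

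TGR5-KO was compared with SLC45a2-KO alone within PY to see what targeting the receptor changed in larvae with tumours. Of the 70 genes 4 passed, all lower, where 11.3% of all tested genes passed (6.33% higher and 5.01% lower). The 5.71% of members called lower was thus near the 5.01% of all genes. As a share called in either direction it was below the 11.3% of all genes. The 4 were map1lc3cl, map1lc3a, atg9b and ctsla, each of which was higher in PY than in WT, and both comparisons use the same PY SLC45a2-KO libraries. No member was called higher by edgeR, where 2 were higher at an unadjusted p under 0.05, and DESeq2 called 5 members in all. The median change was -0.16 over members and 0.02 over all tested genes. With map1lc3cl at 6.43, 5.44, 11.4, 5.54 and 5.84 CPM, every TGR5-KO library lay below every control library (-2.205 ± 0.32, adjusted p = 2.79e-06). For ctsla the TGR5-KO libraries held 77.8, 108, 129, 128 and 115 CPM, again below all controls (-0.92 ± 0.14, adjusted p = 5.88e-06). These calls of map1lc3cl and ctsla held in every alternative.

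The other calls in PY TGR5-KO did not hold in every alternative. The atg9b libraries, at 17.8, 10.203, 19.0, 28.8 and 18.2 CPM, overlapped the controls (-0.98 ± 0.29, adjusted p = 0.0225). The call was lost without PY SLC45a2-KO 1 or 4 or PY TGR5-KO 1 or 2 (adjusted p = 0.0548 to 0.0682). For map1lc3a the libraries were at 13.3, 14.1, 31.4, 17.7 and 33.6 CPM, 3 of them below all controls and 2 among them (-0.80 ± 0.26, adjusted p = 0.0429). Its call was lost in 7 of 10 fits without 1 library (any of PY SLC45a2-KO 1 to 4 or PY TGR5-KO 1, 2 or 4, adjusted p = 0.0516 to 0.119). Without PY TGR5-KO 1 or 2 there were 2 calls rather than 4. The cargo receptor gene sqstm1 was at 18.0, 19.7, 25.8, 49.6 and 30.9 CPM against 39.4, 50.4, 46.4, 41.3 and 36.6 CPM in the controls and missed the threshold (-0.58 ± 0.20, adjusted p = 0.0541). Pump genes that were lower in PY than in WT did not pass here, with changes such as 0.31 ± 0.12 for atp6v0cb (adjusted p = 0.0833) and 0.36 ± 0.22 for atp6ap1a (adjusted p = 0.344). Beside this, 2 of 7 markers of lysosome-rich enterocytes were higher (672 to 1025 against 382 to 688 CPM) and 4 of 10 hepatocyte markers lower (18511 to 23012 against 20494 to 27762 CPM), and their part was not tested. Most of the enterocyte sum in the PY controls was the single gene fabp6.

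With CYP7a1-KO in PY 9 of the 70 genes were lower and none higher, where 13.4% of all tested genes passed (7.49% higher and 5.9% lower). DESeq2 called 11 members, and 5 were higher at an unadjusted p under 0.05 in edgeR. As a share called in either direction the members' 12.9% was near the 13.4% of all genes. The median change was -0.18 over members and 0.02 over all tested genes. In the split made after values were seen, 7 of the 9 calls were autophagosome genes, which made up 28 of the 70 tested. For map1lc3cl the libraries held 3.19, 6.08, 5.17, 3.93 and 1.98 CPM, all below the controls (-2.99 ± 0.34, adjusted p = 1.87e-08). The atg9b libraries, at 14.6, 6.38, 8.39, 7.87 and 16.4 CPM, also lay below every control (-1.77 ± 0.30, adjusted p = 8.8e-05). So did those of ulk1a, a kinase that starts autophagy, at 3.46, 2.74, 1.94, 2.68 and 2.18 CPM against 7.19, 6.59, 8.99, 7.49 and 7.66 CPM (-1.55 ± 0.33, adjusted p = 0.000912). For ctsla the knockout libraries held 121, 93.6, 97.5, 96.9 and 140.9 CPM, below all controls (-0.94 ± 0.14, adjusted p = 3.69e-06). The map1lc3a libraries, at 17.8, 19.8, 8.18, 12.3 and 36.8 CPM, had 4 below all controls and 1 among them (-1.01 ± 0.27, adjusted p = 0.00887). These 5 calls held in every alternative, also without libraries 1 and 2. Not every LC3 gene was lower. The low gene map1lc3c was at 11.2, 3.34, 6.89, 6.44 and 5.54 CPM against 3.71, 1.44, 0, 4.71 and 1.49 CPM. It was higher in most libraries but with overlap, and it did not pass.

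The remaining 4 calls in PY CYP7a1-KO were smaller, and each was lost without libraries 1 and 2. For sqstm1 the libraries stood at 30.3, 17.6, 21.7, 28.6 and 39.0 CPM, with 1 within the control range (-0.63 ± 0.20, adjusted p = 0.0289). For map1lc3b they stood at 31.1, 37.4, 39.0, 21.8 and 62.7 CPM, again with 1 within that range (-0.62 ± 0.20, adjusted p = 0.0295). The others were the accessory subunit gene atp6ap1b, at 10.9, 4.26, 7.53, 9.66 and 16.0 CPM against 13.7, 17.1, 13.0, 20.2 and 16.0 CPM (-0.70 ± 0.24, adjusted p = 0.0423), and wipi2 (-0.58 ± 0.18, adjusted p = 0.0266). Their calls were also lost without PY SLC45a2-KO 2 (all 4), 3 (sqstm1 and map1lc3b), 4 (atp6ap1b and wipi2) or 5 (atp6ap1b), or without PY CYP7a1-KO 1 (map1lc3b and wipi2), 2 (sqstm1 and atp6ap1b), 3 (sqstm1, atp6ap1b and wipi2) or 4 (map1lc3b and atp6ap1b), at adjusted p = 0.0635 to 0.0761 for sqstm1, 0.0539 to 0.107 for map1lc3b, 0.0591 to 0.119 for atp6ap1b and 0.0541 to 0.103 for wipi2. With only the groups compared in the fit map1lc3b (0.0544), wipi2 (0.0913) and atp6ap1b were lost, and with thinned counts atp6ap1b (0.0558). Library 5 was the highest of its group for map1lc3a, map1lc3b, gabarapb, atg9b, sqstm1 and wipi2. In this group exocrine pancreas markers were higher in 7 of 8 tested cases than in PY SLC45a2-KO (7829 to 11151 against 3542 to 6641 CPM), and those of lysosome-rich enterocytes in 3 of 7 (439 to 1071 against 382 to 688 CPM). In PY SLC45a2-KO most of the enterocyte sum was the single gene fabp6. Macrophage markers summed to 257 to 477 CPM, against 145.3 to 218 CPM, with 1 of 8 higher and 2 lower, and the part of these markers was not tested. Most of the macrophage sum was cd74a, at 291 ± 85.9 against 113 ± 25.9 CPM (SD, n = 5 each), while marco was at 10.6 ± 2.69 against 18.4 ± 4.61 CPM and spi1b at 15.3 ± 3.44 against 26.9 ± 8.69 CPM.

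In WT larvae 14 members were lower and 1 higher with TGR5-KO, where 6.49% of all tested genes passed (3.1% higher and 3.4% lower). The lower members were 20% of those tested, and the median change of members was -0.40 against -0.01 over all tested genes. Of the 28 tested autophagosome genes 9 were lower and 0 higher (median -0.62), and of the 20 enzymes and membrane proteins 4 were lower and 0 higher (median -0.56). Of the 19 pump genes 1 was lower and 1 higher. The knockout libraries of map1lc3a were at 4.80, 5.32, 4.09 and 4.15 CPM against 14.8 to 19.5 CPM in WT SLC45a2-KO (-1.95 ± 0.34, adjusted p = 0.000269). For map1lc3b they were at 17.5, 21.8, 20.03 and 16.6 CPM against 41.9 to 51.0 CPM (-1.33 ± 0.23, adjusted p = 0.000132). Neither gene overlapped its controls. The low gene map1lc3cl was at 1.31, 0.463, 3.68 and 2.19 CPM, with 1 library among the controls (-1.48 ± 0.43, adjusted p = 0.0268). The sum over the 7 ubiquitin-like genes was 105 ± 3.86 CPM (SD, n = 4) against 167.5 ± 5.33 CPM. The gabarapb libraries, at 38.8, 37.9, 34.5 and 32.4 CPM, lay below all controls but missed the threshold (-0.52 ± 0.17, adjusted p = 0.0548).

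Of the 6 genes of the initiation kinase complex 3 were lower in WT TGR5-KO, and atg101, ulk1b and ulk3 did not pass. The libraries of ulk2 were at 18.3, 19.0, 19.0 and 15.7 CPM against 44.9, 46.2, 64.2 and 46.5 CPM in the controls, far apart (-1.48 ± 0.22, adjusted p = 9.22e-06). Those of ulk1a were at 2.62, 2.08, 1.02 and 2.84 CPM against 5.61, 7.30, 8.99 and 9.29 CPM (-1.86 ± 0.38, adjusted p = 0.000804). The gene of their partner atg13 was at 13.3, 19.9, 12.7 and 8.96 CPM against 25.4, 23.4, 28.9 and 29.4 CPM (-0.97 ± 0.21, adjusted p = 0.002). None of these 3 genes overlapped its controls, and summed over the 6 genes of the complex the level was 44.7 ± 7.11 CPM against 103 ± 13.4 CPM. Of the scramblase genes, atg9b was at 5.89, 7.17, 4.09 and 1.97 CPM, below all controls (-1.64 ± 0.37, adjusted p = 0.00378). So was atg9a, at 6.76, 4.40, 1.84 and 1.31 CPM against 10.8, 7.09, 7.53 and 14.6 CPM (-1.49 ± 0.45, adjusted p = 0.0403). The cargo receptor gene sqstm1 was at 21.6, 17.1, 25.8 and 17.5 CPM against 46.7, 31.99, 33.9 and 33.6 CPM, also without overlap (-0.83 ± 0.23, adjusted p = 0.0186).

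On the lysosomal side of WT TGR5-KO, ctsla was at 57.8, 81.4, 88.1 and 63.2 CPM, below all controls (-0.94 ± 0.16, adjusted p = 6.44e-05). The pump gene atp6v0a1b, an isoform of the proton path subunit, was at 15.7, 13.0, 16.8 and 11.6 CPM against 25.1, 39.5, 29.1 and 39.4 CPM, without overlap (-1.22 ± 0.22, adjusted p = 0.000132). Another isoform, atp6v0a2b, was higher, at 4.58, 2.08, 5.72 and 4.81 CPM against 0.215 to 0.758 CPM, around the floor (2.99 ± 0.69, adjusted p = 0.00355). Falls also passed for ctsbb (-0.84 ± 0.23, adjusted p = 0.0235), for ctsa, the carboxypeptidase that protects other lysosomal enzymes (-0.68 ± 0.20, adjusted p = 0.0273), and for hexb (-0.65 ± 0.20, adjusted p = 0.0378). In ctsl.1 the libraries held 455, 392, 583 and 519 CPM, below all controls, and the change missed the threshold (-0.66 ± 0.21, adjusted p = 0.0516).

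Of these 15 calls 9 held in every alternative. The calls of hexb (WT SLC45a2-KO 1, 2 or 3 or WT TGR5-KO 1 or 2 left out, adjusted p = 0.0742 to 0.118), atg9a (control 1 or 4, knockout 2, 3 or 4; 0.0603 to 0.146) and map1lc3cl (control 1 or 2, knockout 1, 2 or 4; 0.0533 to 0.108) were lost in 5 of 8 fits without 1 library. Those of ctsbb (control 2 or 3, knockout 1 or 2; 0.0623 to 0.0844) and ctsa (control 1 or 3, knockout 2 or 4; 0.0743 to 0.125) were lost in 4 and that of sqstm1 in 3 (control 1, knockout 2 or 4; 0.0633 to 0.0915). Without WT TGR5-KO 2 there were 9 calls. With thinned counts atg9a was lost (0.159), and hexb was lost with thinned counts, without the filter and under the replicate block (0.0514 to 0.11). Of the 7 markers of lysosome-rich enterocytes edgeR called none here (718 to 1162 against 897 to 1196 CPM), and exocrine pancreas markers were lower in 2 of 8 cases (7579 to 13221 against 13070 to 15401 CPM), and their part was not tested. Most of the enterocyte sum in the WT controls was the single gene fabp6.

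CYP7a1-KO in WT came with 2 members higher and 3 lower, where 11.6% of all tested genes passed (4.14% higher and 7.48% lower), and with a median change of 0.06 against 0.02 over all tested genes. The regulator gene tfeb was at 12.48, 12.3, 11.8 and 11.1 CPM, above all 4 controls (1.26 ± 0.31, adjusted p = 0.00409). The cysteine protease gene ctsf was at 81.8, 57.2, 87.3 and 89.4 CPM against 40.6, 45.5, 50.0 and 67.7 CPM, with overlap (0.63 ± 0.17, adjusted p = 0.0101). Lower was ulk2, at 20.3, 24.0, 27.3 and 20.02 CPM (-1.13 ± 0.22, adjusted p = 0.000223). The hexb libraries were at 18.5, 14.9, 15.3 and 16.4 CPM (-0.74 ± 0.20, adjusted p = 0.00919). Those of lamp2, a glycoprotein needed to fuse autophagosomes with lysosomes, were at 78.6, 80.9, 73.3 and 77.6 CPM against 123.01, 104, 115 and 126 CPM (-0.59 ± 0.16, adjusted p = 0.00786). None of these 3 overlapped its controls. The call of ctsf was lost without WT SLC45a2-KO 1 or 2 or WT CYP7a1-KO 4 (adjusted p = 0.0505 to 0.0687), and with only these 8 libraries in the fit 11 members passed. Beside this, hepatocyte markers were lower in 7 of 10 cases (7366 to 8432 against 11907 to 15505 CPM) and lysosome-rich enterocyte markers in 2 of 7 (415 to 702 against 897 to 1196 CPM), and their part was not tested. Most of the latter sum was fabp6, at 349 ± 93.3 against 852 ± 115 CPM (SD, n = 4 each), while lrp2b of the same list was at 73.5 ± 14.4 against 48.1 ± 6.47 CPM.

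The knockouts were also set against each other. Within PY no member differed between TGR5-KO and CYP7a1-KO at the threshold, where 0.135% of all tested genes passed (0.0773% higher and 0.058% lower in TGR5-KO). Neither edgeR nor DESeq2 called a member, and 11 of 70 had an unadjusted p under 0.05 in edgeR. The difference for map1lc3cl was 0.78 ± 0.35 (TGR5-KO minus CYP7a1-KO, 95% interval 0.07 to 1.49, adjusted p = 0.501). For ulk1a it was 0.90 ± 0.34 (95% interval 0.21 to 1.58, adjusted p = 0.376).

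Within WT 20 members passed, 19 lower and 1 higher in TGR5-KO than in CYP7a1-KO, where 21.1% of all tested genes passed (11.8% higher and 9.26% lower), and the median was -0.51 against -0.04. Among the 28 autophagosome genes 12 were lower and 0 higher (median -0.83). In WT CYP7a1-KO map1lc3a was at 22.2, 29.99, 23.3 and 28.8 CPM, above all TGR5-KO libraries (-2.502 ± 0.34, adjusted p = 1.73e-06). The same held for map1lc3b, at 60.1, 43.1, 36.0 and 37.9 CPM (-1.22 ± 0.23, adjusted p = 0.000133). For atg9b the CYP7a1-KO libraries were at 12.9, 15.9, 17.3 and 24.0 CPM, without overlap (-1.88 ± 0.36, adjusted p = 0.000259). The GABARAP gene gabarapb, at 77.7, 64.8, 55.7 and 73.8 CPM in WT CYP7a1-KO, differed as well (-0.92 ± 0.17, adjusted p = 7.51e-05). For ulk1a the CYP7a1-KO libraries were at 7.16, 4.03, 6.25 and 7.63 CPM (-1.54 ± 0.38, adjusted p = 0.00215) and for atg9a at 14.1, 15.5, 6.25 and 11.4 CPM (-1.72 ± 0.45, adjusted p = 0.00519). The pump gene atp6v0a1b was at 25.4, 28.8, 38.8 and 36.2 CPM in CYP7a1-KO (-1.18 ± 0.22, adjusted p = 6.3e-05) and sqstm1 at 47.4, 46.5, 35.8 and 37.9 CPM (-1.03 ± 0.23, adjusted p = 0.000795), neither overlapping TGR5-KO. The higher gene was atp6v0a2b (1.65 ± 0.62, adjusted p = 0.0483). In the same comparison 7 of 10 hepatocyte markers were higher in TGR5-KO (12975 to 16004 against 7366 to 8432 CPM), 6 of 12 neuron markers lower (1044 to 1243 against 1378 to 1601 CPM) and 3 of 8 exocrine pancreas markers lower (7579 to 13221 against 12353 to 14540 CPM), and their part was not tested. Of the 20 member calls 11 held in every alternative, and without WT TGR5-KO 1 there were 13. The calls of atg4c, ctsbb and wipi1 were lost in 7 of 8 fits without 1 library, those of atp6v0a2b, ctsk, map1lc3cl and ulk1b in 6, that of atp6ap1la in 4 and that of lamp1b in 1 (WT TGR5-KO 4), at adjusted p between 0.0511 and 0.16. Those of atg4c, atp6v0a2b and ulk1b were also lost without the filter (0.0969, 0.0551 and 0.103), that of atg4c under the replicate block (0.0643), and those of atp6v0a2b and ulk1b with counts thinned to the smallest library (0.078 and 0.184).

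Whether a knockout went with a different change in the tumour background was tested as the change in PY minus the change in WT. For TGR5-KO 4 members passed, 3 higher and 1 lower, where 6.71% of all tested genes passed (3.94% higher and 2.76% lower). The members' share of 5.71% was near that of all genes, and their median was 0.25 against 0.04. The kinase gene ulk2, lower in WT TGR5-KO, held 36.2, 26.8, 50.9, 53.6 and 25.8 CPM in PY TGR5-KO against 25.04, 37.9, 39.0, 37.7 and 40.6 CPM in the PY controls. The PY groups overlapped (difference of changes 1.58 ± 0.29, adjusted p = 0.000292). The pump gene atp6v0a1b had PY TGR5-KO libraries at 31.3, 28.6, 32.4, 25.1 and 21.4 CPM against 27.4, 23.1, 26.5, 17.2 and 25.3 CPM, also overlapping (difference 1.44 ± 0.29, adjusted p = 0.000744). Both calls held in every alternative. Those of atp6v0cb (0.56 ± 0.18, adjusted p = 0.0403) and atp6v0a2b (-2.90 ± 0.89, adjusted p = 0.0354) were lost in 13 and 9 of 18 fits without 1 library, at adjusted p = 0.0536 to 0.0901 and 0.0534 to 0.0772. That of atp6v0cb was also lost with RLE factors, without the filter and with thinned counts (0.0534 to 0.0892). Of the cell type markers, 1 each of those of ionocytes, neurons, lysosome-rich enterocytes, exocrine pancreas and pigment cells had a higher difference and 1 of hepatocytes a lower one, and their part was not tested.

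The falls of map1lc3a, map1lc3cl, atg9b and ctsla were called with TGR5-KO in both backgrounds. As differences between backgrounds they did not pass, at 1.15 ± 0.43, adjusted p = 0.112 for map1lc3a, -0.72 ± 0.55, adjusted p = 0.521 for map1lc3cl, 0.67 ± 0.46, adjusted p = 0.472 for atg9b and 0.02 ± 0.21, adjusted p = 0.982 for ctsla. The 95% interval was -1.83 to 0.39 for map1lc3cl and -0.40 to 0.44 for ctsla. Missing the threshold does not show equal changes, and the difference of map1lc3a was the largest of these. The calls of ctsla alone held in every alternative in both backgrounds. In fits without 1 library those of map1lc3a and atg9b in PY were lost in 7 and 4 of 10. That of map1lc3cl in WT was lost in 5 of 8. Only 2 members passed as different without WT SLC45a2-KO 1, 2 or 3, WT TGR5-KO 1 or 4 or PY TGR5-KO 5.

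For CYP7a1-KO 14 members differed between backgrounds, 4 with a higher and 10 with a lower change in PY, where 17.8% of all tested genes passed (10.8% higher and 6.98% lower), and the median was -0.21 against 0.00. The members' share of 20% in either direction was near the 17.8% of all genes. Of the 10 lower, 6 were autophagosome genes, which made up 28 of the 70 tested. Markers also differed, with a higher change in PY for 6 of 10 of hepatocytes (median 0.73), 4 of 8 of exocrine pancreas (median 0.74) and 3 of 7 of lysosome-rich enterocytes (median 1.04), and 2 of neurons higher and 3 lower of 12, and their part was not tested. Members with a lower change in PY included map1lc3cl (difference -2.69 ± 0.51, adjusted p = 0.000175), atg9b (-2.01 ± 0.44, adjusted p = 0.00153) and map1lc3a (-1.56 ± 0.40, adjusted p = 0.00561). In WT their changes with CYP7a1-KO were -0.30 ± 0.39, 0.24 ± 0.33 and 0.55 ± 0.30, none of which passed. The regulator gene tfeb, higher in WT CYP7a1-KO, was at 6.92, 3.04, 9.04, 4.47 and 7.32 CPM in PY CYP7a1-KO, where 3 libraries lay below all PY controls and 2 among them (difference -1.89 ± 0.42, adjusted p = 0.000944). For ctsla the difference was -0.88 ± 0.21, adjusted p = 0.00206 and for ctsf -0.84 ± 0.23, adjusted p = 0.00865. The other lower changes were those of gabarapb (-0.72 ± 0.23, adjusted p = 0.0193), of sqstm1 (-0.83 ± 0.30, adjusted p = 0.0468) and of atg4b (-1.56 ± 0.57, adjusted p = 0.047). The collagen-degrading protease gene ctsk, known from osteoclasts, was at 3.19, 10.9, 14.0, 16.8 and 12.9 CPM in PY CYP7a1-KO against 23.4, 16.1, 13.0, 13.6 and 26.0 CPM, and at 16.2 to 22.3 CPM in WT CYP7a1-KO against 11.8 to 13.7 CPM. It lay above its controls in WT and mostly below them in PY (difference -1.32 ± 0.43, adjusted p = 0.026).

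Changes with CYP7a1-KO were higher in PY for hexb, ulk2, ctsz and ctsa. In hexb the PY CYP7a1-KO libraries were at 18.4, 22.2, 15.5, 14.1 and 16.2 CPM against 11.8, 13.0, 11.7, 11.1 and 15.5 CPM in the PY controls, higher in most but with overlap, while WT CYP7a1-KO lay below its controls (difference 1.18 ± 0.28, adjusted p = 0.00168). For ulk2 the PY CYP7a1-KO libraries were at 52.4, 37.1, 27.1, 23.6 and 41.6 CPM, on both sides of the PY controls (difference 1.14 ± 0.29, adjusted p = 0.00396). For ctsz the libraries were at 27.1, 28.6, 28.6, 41.8 and 50.5 CPM in PY CYP7a1-KO against 23.7, 34.4, 24.5, 18.6 and 22.6 CPM, and at 24.0 to 31.7 CPM in WT CYP7a1-KO against 31.7 to 47.5 CPM. The PY groups overlapped and so did the WT groups (difference 0.93 ± 0.28, adjusted p = 0.015). The difference of ctsa was 0.73 ± 0.27, adjusted p = 0.0489. Of the 14 calls 8 held in every alternative. Those of atg4b, ctsa and sqstm1 were each lost in 12 of 18 fits without 1 library (adjusted p = 0.0508 to 0.106, 0.0621 to 0.128 and 0.0503 to 0.0885). That of ctsk was lost without WT SLC45a2-KO 3 or PY SLC45a2-KO 5 (0.05 to 0.0513) and that of ctsz without WT SLC45a2-KO 2 (0.0567). Without PY CYP7a1-KO 1 and 2 together the calls of gabarapb (0.0605), ctsk (0.0575), sqstm1 (0.0954) and atg4b were lost. That of atg4b was also lost without the filter, with only the groups compared, under the replicate block and with thinned counts (0.0504 to 0.097), and that of ctsa with DESeq2, both other scalings, only the groups compared and thinned counts (0.0503 to 0.0604).

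**Figure D4:**
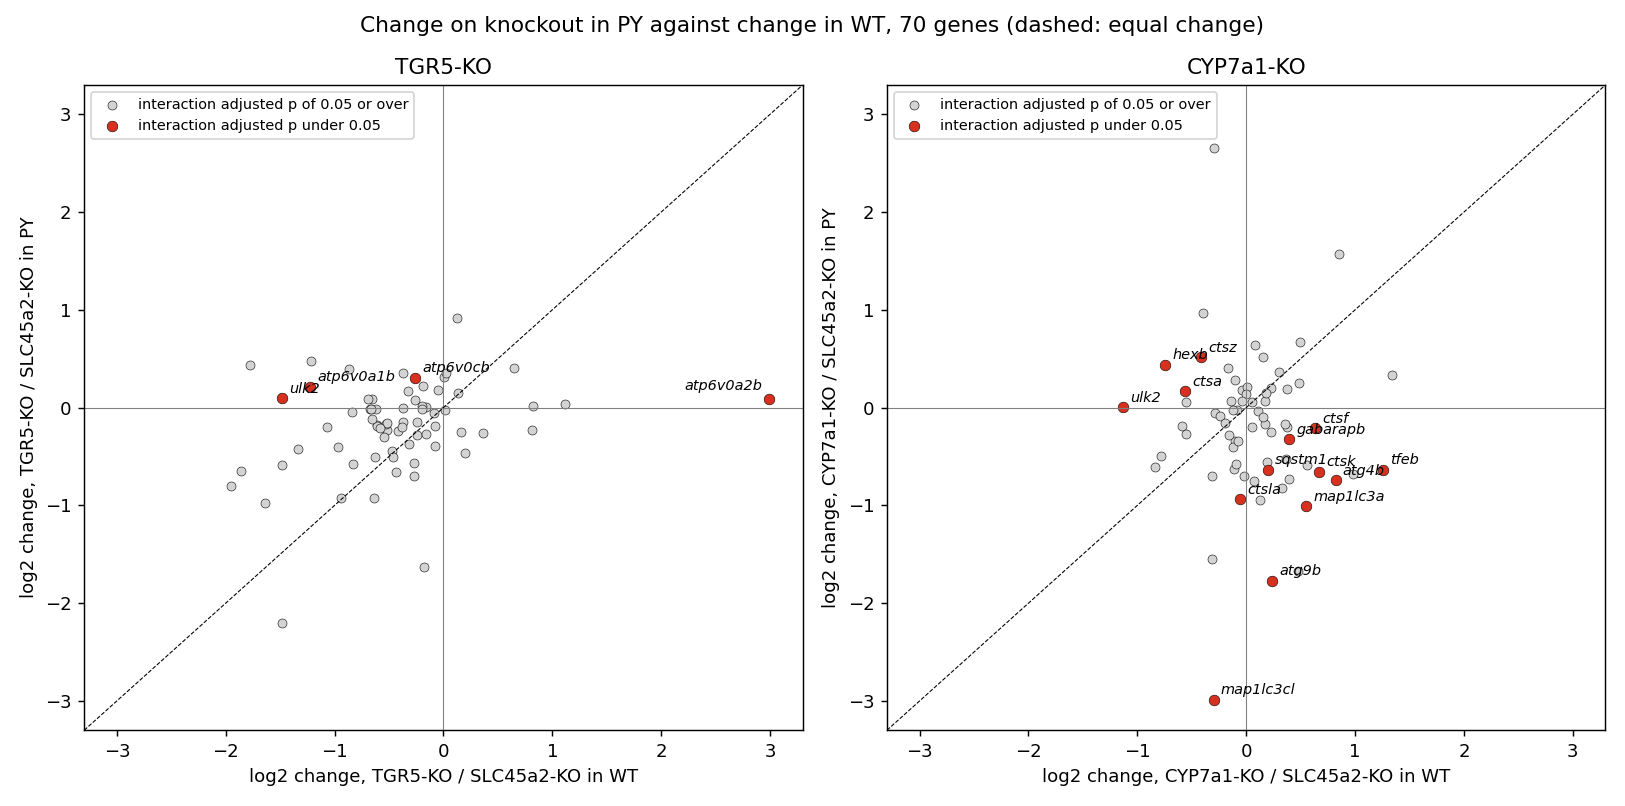
The log2 change with knockout in PY (vertical axis) against that in WT (horizontal axis) for the 70 tested genes, TGR5-KO left and CYP7a1-KO right, both against SLC45a2-KO of the same background. Named red points passed the test of the difference, 4 on the left and 14 on the right, and the dashed line marks equal change. In the right panel map1lc3cl, atg9b, map1lc3a and tfeb lie below the line and hexb and ulk2 above it.

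Other genes of the pathway, from lists that leave out the 91, were counted in the same fits. Of 54 tested autophagy genes 19 were higher and 3 lower in PY than in WT with SLC45a2-KO (median 0.32), and of 50 tested lysosome genes 10 were higher and 4 lower (median 0.29). Over all tested genes 17.9% were higher and 17.7% lower (median -0.02), so the share of lysosome genes called higher was near that of all genes. The cargo receptor gene optn was at 0, 0, 0.418 and 0.569 CPM in WT and 3.48, 5.35, 4.74, 1.39 and 4.04 CPM in PY (adjusted p = 3.46e-05). Every WT library was at or under the limit of 3 counts, so the size of this difference is uncertain. The fusion protein gene vamp8 was at 1.35, 0.859, 1.25 and 0 CPM and 4.17, 5.76, 6.74, 10.3 and 4.89 CPM (2.86 ± 0.55, adjusted p = 3.49e-05). Neither overlapped between the groups. The receptor gene calcoco1b was at 3.59, 1.29, 1.05 and 0.190 CPM and 9.97, 14.4, 10.49, 14.1 and 6.17 CPM (2.86 ± 0.55, adjusted p = 4.38e-05). The lysosomal ion channel gene tmem175 was at 2.24, 2.58, 0.836 and 0.379 CPM and 8.58, 11.1, 9.49, 5.55 and 5.74 CPM (2.43 ± 0.58, adjusted p = 0.000767). These were also higher in every PY library. Lower in PY was lgmn, a protease that processes cathepsins, at 133, 148.8, 151 and 162 CPM and 83.2, 104, 57.9, 62.9 and 94.9 CPM (-0.88 ± 0.17, adjusted p = 5.34e-05). So were lamtor2, a subunit of the nutrient-sensing scaffold on the lysosome (-0.91 ± 0.24, adjusted p = 0.00231), and the granulin gene grn2 (-0.90 ± 0.26, adjusted p = 0.00435).

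The same lists were counted with the knockouts. In PY 1 autophagy gene was higher and 6 lower with TGR5-KO (median -0.21), and 1 higher and 8 lower with CYP7a1-KO (median -0.29), where 6.33% and 7.49% of all tested genes were higher and 5.01% and 5.9% lower. In WT 1 was higher and 9 lower with TGR5-KO (median -0.32), and 2 higher and 2 lower with CYP7a1-KO (median 0.08), where 3.1% and 4.14% of all tested genes were higher and 3.4% and 7.48% lower. Of the 50 lysosome genes 4 were lower and 1 higher with TGR5-KO in WT (median -0.41), and 1 was lower and 0 higher with CYP7a1-KO in WT (median 0.00). In PY 2 were lower and 0 higher with TGR5-KO (median -0.29), and 2 lower and 1 higher with CYP7a1-KO (median -0.21). These lysosome counts in PY, and that with CYP7a1-KO in WT, were no larger a share than over all genes. A few genes were singled out after their values were seen. The TFEB relative tfe3a was higher in PY than in WT (1.76 ± 0.19, adjusted p = 1.13e-10) and lower in PY with TGR5-KO (-1.15 ± 0.17, adjusted p = 3.25e-06) and CYP7a1-KO (-0.89 ± 0.17, adjusted p = 0.000191). The same held for npc1, which exports cholesterol from the lysosome (1.04 ± 0.20, adjusted p = 3.3e-05, then -0.80 ± 0.18, adjusted p = 0.00197 and -1.004 ± 0.19, adjusted p = 0.000121). The transcription factor gene foxo1a, which raises autophagy genes in fasting muscle, was higher in PY (0.78 ± 0.15, adjusted p = 4.82e-05), and in WT it was lower with TGR5-KO (-1.49 ± 0.17, adjusted p = 1.36e-08) and higher with CYP7a1-KO (0.59 ± 0.16, adjusted p = 0.00843). All comparisons given for tfe3a and npc1 use the same PY SLC45a2-KO libraries, and those for foxo1a the same WT SLC45a2-KO libraries. The changes of each gene are therefore not independent.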

How the data were processed

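RNA from pools of whole zebrafish larvae was sequenced with a 3′ mRNA kit in 27 libraries. The table deposited by the authors holds raw counts per gene and, per the file headers, CPM of the same libraries, which equalled count over total to within 0.0005 CPM. Per the submitters' processing notes the builds were danRer10 and GRCz11, with no role for either. The aligner, the counter and the strand setting were not given in the sources used here. A further allele of the PY background and a few genes are not reported here.

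The counts were refitted as deposited with edgeR 4.0.16 in R 4.3.3 (filterByExpr, TMM factors of 0.910 to 1.07, robust quasi-likelihood fit with 1 mean per group over all 27 libraries, common biological coefficient of variation 0.264). A gene was called at a Benjamini-Hochberg adjusted p under 0.05 over 15521 genes, in 9 comparisons, of which 2 were interactions. Groups and library numbers come from the sample titles. DESeq2 1.42.0 was an alternative beside the others in the closing section. Of the 91 symbols 89 were in the RefSeq gene table (GRCz12tu), which was used for names only.

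Members to be shown by library were picked by rule. They were the called members of largest change at 5 CPM or more, up to 6 in each direction of a comparison. The most abundant member of each of 13 role classes was added, as were sqstm1, tfeb and the tested gabarap and map1lc3 genes. Many are shown by library in some groups only, and ctsa by its changes only. Some members outside this rule are given too, chosen after their values were seen. From the list of other pathway genes up to 4 called per direction are named. The members and lists were chosen with earlier results of these data known, and the wider grouping into autophagosome, pump, enzyme and regulator genes was made after values were seen.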

Additional observations from a re-analysis of the deposited data

Results flagged for a closer look

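Among 34 named genes in 6 groups, 204 group values were examined by Dixon's test, and in 17 of them 1 library stood apart from the others of its group. Chance gives about 1 in 20 such groups. No explanation was weighed.

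In WT SLC45a2-KO, atp6v0ca was highest in library 4 at 484 CPM (others 382 to 397), sqstm1 in library 1 at 46.7 CPM (32 to 33.9) and ulk2 in library 3 at 64.2 CPM (44.9 to 46.5). In WT TGR5-KO, atg16l1 was highest in library 3 at 47.2 CPM (36.4 to 37.4). In WT CYP7a1-KO, library 1 was the highest for ctsl.1 at 852 CPM (651 to 674) and the lowest for ctsd at 5.78 CPM (14.3 to 15.5). In the same group library 2 was the highest for ctsbb at 82.9 CPM (73.5 to 74.5) and had map1lc3c at 0 CPM (4.85 to 5.53), and library 3 was the highest for atp6ap1a at 35.4 CPM (23.1 to 25).

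In PY SLC45a2-KO, library 3 was the highest for atp6ap1a at 18.2 CPM (8.08 to 10.9) and atp6v1d at 52.2 CPM (40.2 to 42.3), library 5 the lowest for tfeb at 7.02 CPM (9.98 to 10.7) and library 1 the lowest for ulk2 at 25 CPM (37.7 to 40.6). In PY TGR5-KO, atg9a was highest in library 4 at 10.8 CPM (3.22 to 5.35), lamp2 in library 2 at 127 CPM (92.0 to 101) and map1lc3cl in library 3 at 11.4 CPM (5.44 to 6.43), while atp6v1d was lowest in library 5 at 36.5 CPM (44.2 to 46.5).

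The other results listed here are changes with knockout that differed between PY and WT in the test of the difference itself, in log2 units, PY minus WT. For TGR5-KO these were 1.58 for ulk2, 1.44 for atp6v0a1b, 0.56 for atp6v0cb and -2.90 for atp6v0a2b. For CYP7a1-KO the lower changes were -2.69 for map1lc3cl, -2.01 for atg9b, -1.89 for tfeb, -1.56 for map1lc3a, -1.56 for atg4b, -1.32 for ctsk, -0.88 for ctsla, -0.84 for ctsf, -0.83 for sqstm1 and -0.72 for gabarapb. The higher ones were 1.18 for hexb, 1.14 for ulk2, 0.93 for ctsz and 0.73 for ctsa.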

How the results depend on the processing

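For the 96 calls of members over the 9 comparisons, 1782 alternative values were computed. Of these 1546 kept direction and side of the threshold, 236 kept the direction but missed the threshold (196 of them in fits without 1 library and 11 with counts thinned to the smallest library), and 0 reversed. Apart from fits without 1 library, counts of called members moved by more than 1.5 times in 3 cases. Without a filter on low counts CYP7a1-KO in WT gave 8 members and the TGR5-KO interaction 8, against 5 and 4, and with only the groups compared in the fit CYP7a1-KO in WT gave 11. The causes were not tested.

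Without 1 library at a time, members called ranged from 20 to 27 for PY against WT, 2 to 6 for TGR5-KO in PY, 6 to 12 for CYP7a1-KO in PY, 9 to 15 for TGR5-KO in WT, 4 to 7 for CYP7a1-KO in WT, 0 to 0 and 13 to 17 for TGR5-KO against CYP7a1-KO in PY and WT, and 2 to 5 and 10 to 16 for the TGR5-KO and CYP7a1-KO interactions. Without PY CYP7a1-KO 1 and 2 together, CYP7a1-KO in PY gave 6 members, 5 lower and 1 higher, and its interaction 13.

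The labels do not say that the library numbers pair the groups. Over 31 pairs of same-numbered libraries the correlation of deviations was -0.104 to 0.0624. Taken over all tested genes, this correlation cannot show whether a shared origin acted on fewer genes. With the number as a replicate block the same comparisons gave 23, 4, 10, 16, 5, 0, 20, 4 and 13 members. The planned motif alternative was not run, because no promoter sequences were used here. Depth limits genes near the floor of 0.481 to 0.888 CPM, such as atp6v0a2b, atp6v1ba and map1lc3c.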

Other observations

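The marker lists of 4 further cell types were counted in PY against WT with SLC45a2-KO. Genes listed for neutrophils were higher in 2 and lower in 1 of 6 tested cases. Their sums were 1099 to 1415 CPM in WT and 794 to 1212 CPM in PY, with lyz at 0 in both groups. Most of this sum was cpa5, at 1144 ± 141.3 CPM in WT (SD, n = 4) and 673 ± 108 CPM in PY (n = 5). The sum thus follows that 1 gene and is not taken as a measure of neutrophils. The median change over the 6 tested genes was 0.66, and mpx was at 8.23 ± 1.61 and 12.8 ± 6.47 CPM. Neuron markers were lower in 4 of 12 cases (1074 to 1290 CPM in WT and 997 to 1165 CPM in PY). Of 4 tested pigment cell markers 3 were lower (110 to 138 CPM in WT and 40.1 to 56.2 CPM in PY). Osteoclast markers, a list that includes the member ctsk, were lower in 1 of 3 cases, with sums of 24.9 to 28.7 CPM in WT and 15.0 to 32.8 CPM in PY.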
